A study of Mus musculus with 8 samples.

Results

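Primed epiblast transcription factors were examined in mouse embryonic stem cells (ESCs) whose WDR5 supply was altered. The 7 genes were Pou3f1, Otx2, Zic2, Zic5, Sall2, Tcf15 and Foxd3, of 11940 genes tested in all. They were chosen by name as regulators that are expressed in, or known to act in, the primed epiblast. The choice, like that of the gene lists below, was made with earlier results of these data known. Their counts beside the share of all genes are therefore descriptive. A gene was represented by the array probe sets whose only gene symbol was its own. The 7 genes had 10 such probe sets, of which 9 exceeded the expression minimum of 50 on the linear scale (5.64 on the log2 scale) in at least 1 array, so that all 7 were tested. The exception was 1 of the 3 Zic5 probe sets, which reached at most 5.55 in any array and was left out.

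Pluripotent cells of the embryo pass through a naive state, in the inner cell mass, and a primed state, in the epiblast that is about to form the germ layers. ESCs in serum and LIF move between these states, and cells nearing the primed one raise Otx2, Pou3f1, Zic family genes, Fgf5 and the de novo DNA methyltransferases, while they lower naive factors such as Klf4, Esrrb and Tbx3. Otx2 is the best known driver of the switch, since its homeodomain protein takes the core pluripotency factor encoded by Pou5f1 to primed-state enhancers. WDR5 is a subunit shared by the MLL and SET complexes that methylate lysine 4 of histone H3, a mark of active promoters that is found mostly at CpG-rich ones.

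All arrays were of V6.5 mouse ESCs carrying lentiviral constructs that express an shRNA against mouse Wdr5 at all times and human WDR5 from a doxycycline-dependent promoter. The human protein was either F266A, a point mutant that the study describes as unable to bind RNA though it still joins the MLL complex, or wild type (WT). Cells positive for the GFP reporter were sorted and grown with doxycycline at 2 µg per mL (+dox) or without it (-dox), which shuts the transgene off. The groups were thus F266A -dox, F266A +dox, WT -dox and WT +dox, with 2 arrays each, labelled as biological duplicates. All 4 groups shared the shRNA, so no group had its own Wdr5 untouched, and the study describes 1 infected and sorted line for each transgene, so a difference between F266A and WT cannot be told apart from a difference between those lines. Nothing in the sources used here says how the duplicates were separated, and the p-values measure only the spread between these arrays. Expression is given as the log2 of RMA values, on which 1 unit is a 2-fold difference, and levels are compared between groups for a gene and never between genes.

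Wdr5, the gene the shRNA targets, averaged 9.29 ± 0.03 in F266A -dox, 8.58 ± 0.02 in F266A +dox, 9.40 ± 0.07 in WT -dox and 8.34 ± 0.02 in WT +dox (SD, n = 2 arrays), so it was higher without doxycycline in both lines, and no group could serve as a check of the knockdown itself. Whether its 2 probe sets read only the mouse transcript, and not the induced human one, was not determined. Pou5f1 and Sox2, which define pluripotent cells, were above 12 in all 8 arrays. Pou5f1 was not called in any comparison, but Sox2 was lower in F266A -dox than in each other group. The Sox2 difference was -0.51 ± 0.08 from WT +dox (adjusted p = 0.000595), -0.41 ± 0.08 from WT -dox (adjusted p = 0.00482) and -0.27 ± 0.08 from F266A +dox (adjusted p = 0.0414). Of 9 fibroblast markers, 8 stayed below the expression minimum, and the summed linear level of the list was 199 and 211 in F266A -dox, 197 and 185 in F266A +dox, 192 and 194 in WT -dox and 193 and 189 in WT +dox. The fibroblast marker that was tested, Col1a2, was higher in F266A -dox than in WT -dox by 0.80 ± 0.16 (adjusted p = 0.00495) and than in WT +dox by 0.63 ± 0.16 (adjusted p = 0.00748). Of 6 primitive endoderm markers, Gata4, Sox17 and Sox7 stayed below the minimum, and the summed level was 200 and 203 in F266A -dox, 166 and 170 in F266A +dox, 177 and 171 in WT -dox and 164 and 160 in WT +dox. Dab2 of this list was higher than in WT +dox by 1.28 ± 0.16 in F266A -dox (adjusted p = 0.000146) and by 1.01 ± 0.16 in F266A +dox (adjusted p = 0.00152), and Foxa2 by 0.77 ± 0.07 in F266A -dox (adjusted p = 1.96e-05). Foxa2 exceeded the minimum only in the F266A -dox arrays, at 6.06 and 5.97. It was thus tested only through the group where it was high, and its difference is set against background. The part of these markers in the differences below was not tested. The control probe set for the middle of 18S ribosomal RNA read 9.60 and 9.57 in F266A -dox, 10.61 and 10.35 in F266A +dox, 11.13 and 10.78 in WT -dox and 11.42 and 10.99 in WT +dox. On average it was thus lowest in F266A -dox and highest in WT +dox, which were the highest and the lowest group for several genes below, and its part in their differences was not tested. The 3′ minus 5′ difference of the Gapdh control lay between 0.14 and 0.17 in the F266A arrays and between 0.10 and 0.13 in the WT arrays, and that of the Actb control between 0.53 and 0.63 in the F266A arrays and between 0.69 and 0.74 in the WT arrays, so the controls ordered the lines in opposite ways.

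Otx2, Sall2, Zic2 and Zic5 lie on chromosome 14, Pou3f1 and Foxd3 on chromosome 4 and Tcf15 on chromosome 2 of the RefSeq annotation of GRCm38.p6. Zic5 and Zic2 are neighbours there, with 1 annotated gene between them, the long noncoding RNA gene 2610035F20Rik. Promoter windows of 300 bases, 250 before and 50 after a transcription start, were taken from RefSeq (GRCm38.p6) and were found for 4 of the 7 genes, Foxd3, Otx2, Sall2 and Zic5. One window each is shown for genes that rose on withdrawal of WT WDR5 (Otx2, Sall2 and Zic5, below) and for Foxd3, which was not called in that comparison, so that their CpG content and motifs can be set side by side.
Otx2, start 3 of 4, chr14:48665060-48665359, minus strand: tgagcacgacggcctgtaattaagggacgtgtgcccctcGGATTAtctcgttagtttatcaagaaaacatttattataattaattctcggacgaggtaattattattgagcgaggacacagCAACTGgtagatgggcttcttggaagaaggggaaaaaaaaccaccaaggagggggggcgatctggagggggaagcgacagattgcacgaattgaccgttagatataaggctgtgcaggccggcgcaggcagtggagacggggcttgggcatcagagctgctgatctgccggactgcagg
Sall2, start 2 of 2, chr14:52316274-52316573, minus strand: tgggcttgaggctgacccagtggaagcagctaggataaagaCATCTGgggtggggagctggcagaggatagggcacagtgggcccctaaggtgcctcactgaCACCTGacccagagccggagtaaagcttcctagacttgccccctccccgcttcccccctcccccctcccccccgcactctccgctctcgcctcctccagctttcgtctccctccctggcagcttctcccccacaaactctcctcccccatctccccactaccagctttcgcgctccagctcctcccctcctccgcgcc
Zic5, chr14:122465609-122465908, minus strand: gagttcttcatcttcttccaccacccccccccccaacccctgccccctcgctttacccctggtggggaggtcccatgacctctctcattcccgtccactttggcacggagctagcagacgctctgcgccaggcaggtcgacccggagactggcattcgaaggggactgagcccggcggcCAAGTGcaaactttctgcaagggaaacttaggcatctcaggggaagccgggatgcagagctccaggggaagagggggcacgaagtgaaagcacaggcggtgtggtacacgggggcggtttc
Foxd3, chr4:99656049-99656348, plus strand: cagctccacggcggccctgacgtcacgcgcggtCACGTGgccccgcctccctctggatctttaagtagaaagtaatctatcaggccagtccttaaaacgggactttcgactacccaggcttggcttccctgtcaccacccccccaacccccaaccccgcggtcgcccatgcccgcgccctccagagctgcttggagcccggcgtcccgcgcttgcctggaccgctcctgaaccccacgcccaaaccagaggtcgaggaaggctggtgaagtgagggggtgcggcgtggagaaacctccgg
Capitals mark matches to the motifs searched, on either strand. These were the octamer ATGCAAAT of POU proteins such as the one encoded by Pou3f1, the bicoid-class homeodomain motif TAATCC of OTX2, CAGCAGG of ZIC proteins, TGTTTAC of forkhead proteins such as FOXD3, and the E-box CANNTG, to which proteins of the TCF15 class bind. Over all 32851 RefSeq windows of this length, 1.74% held the octamer, 7.06% the bicoid motif, 10.5% the ZIC motif, 3.65% the forkhead motif and 72.3% an E-box. The bicoid motif was matched only once among the 8 windows of these genes, as GGATTA, its reverse complement, at positions -211 to -206 from the third Otx2 start, in the sequence above. No octamer, ZIC or forkhead match was found in the 8 windows, whereas 7 of the 8 held at least 1 E-box. The windows held 25 CpG dinucleotides for Foxd3, 15 for Zic5, 6, 8, 16 and 11 for the 4 Otx2 starts and 1 and 10 for the 2 Sall2 starts, against a median of 7 over all windows.

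Pou3f1, which encodes a POU-domain factor of the epiblast and early neural cells also known as Oct6, differed more between groups than between duplicates. Its level was 9.39 and 9.17 in F266A -dox, 8.47 and 8.36 in F266A +dox, 8.36 and 8.46 in WT -dox and 6.98 and 6.88 in WT +dox. The arrays of F266A -dox lay above all others, those of WT +dox below all others, and the remaining groups overlapped. F266A +dox minus WT -dox was 0.00 (95% interval -0.20 to 0.21), so these neighbours in the order did not differ beyond their spread. Withdrawal raised Pou3f1 by 0.87 ± 0.09 in the F266A line (1.82-fold, adjusted p = 0.000552) and by 1.48 ± 0.09 in the WT line (2.79-fold, adjusted p = 1.25e-05; SE, n = 2 arrays a group). In bulk arrays such as these, more RNA in each cell and more cells with the gene on cannot be told apart. The 2 probe sets of the gene differed in the size of their change. In F266A -dox minus WT +dox, one gave 2.85 ± 0.10 and the other 1.85 ± 0.11.

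Sall2, a zinc finger gene of the spalt family, had the same order of groups. Its level was 7.86 and 7.40 in F266A -dox, 6.42 and 6.32 in F266A +dox, 6.38 and 6.33 in WT -dox and 5.64 and 5.37 in WT +dox. Both WT +dox arrays were under the expression minimum, so the level there is close to what the array reads for silent genes. F266A -dox again stood above all other groups, and F266A +dox overlapped WT -dox, with a difference of 0.01 (95% interval -0.31 to 0.33). Sall2 rose by 1.26 ± 0.14 on withdrawal in the F266A line (2.40-fold, adjusted p = 0.000768) and by 0.85 ± 0.14 in the WT line (1.81-fold, adjusted p = 0.00196).

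Zic2 and Zic5 encode zinc finger factors of the epiblast and the dorsal neural tube. Zic2 was at 7.46 and 7.05 in F266A -dox, 5.92 and 5.82 in F266A +dox, 6.50 and 6.44 in WT -dox and 4.93 and 4.95 in WT +dox. The 4 groups did not overlap, and only the WT +dox arrays were under the expression minimum. Withdrawal raised Zic2 by 1.39 ± 0.12 in the F266A line (2.62-fold, adjusted p = 0.000256) and by 1.53 ± 0.12 in the WT line (2.90-fold, adjusted p = 3.20e-05). Its neighbour Zic5 was at 8.90 and 8.54 in F266A -dox, 8.01 and 7.97 in F266A +dox, 8.58 and 8.56 in WT -dox and 6.77 and 7.16 in WT +dox. Here F266A -dox and WT -dox overlapped, with a difference of 0.15 (95% interval -0.16 to 0.46), F266A +dox lay below both, and WT +dox lay lowest with the widest gap between duplicates. Zic5 rose by 0.73 ± 0.14 in the F266A line (1.66-fold, adjusted p = 0.00742) and by 1.60 ± 0.14 in the WT line (3.04-fold, adjusted p = 6.49e-05). Without replicate 2 of F266A +dox the change in the F266A line was 0.71 with an adjusted p of 0.0524.

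Otx2 and Tcf15 had another order of groups, with WT -dox highest. Otx2 was at 8.82 and 8.78 in F266A -dox, 8.72 and 8.56 in F266A +dox, 9.19 and 9.15 in WT -dox and 8.13 and 8.21 in WT +dox. Tcf15, a basic helix-loop-helix gene that marks ESCs poised to differentiate and later the somites, was at 9.51 and 9.18 in F266A -dox, 9.34 and 9.23 in F266A +dox, 9.79 and 9.81 in WT -dox and 8.54 and 8.66 in WT +dox. For both genes the F266A arrays lay between the WT groups, and no F266A array reached WT -dox or fell to WT +dox. Withdrawal in the F266A line changed Otx2 by 0.16 ± 0.08 (95% interval -0.01 to 0.33, adjusted p = 0.173) and Tcf15 by 0.06 ± 0.11 (95% interval -0.18 to 0.29, adjusted p = 0.744), so neither passed the test there. In the WT line Otx2 rose by 1.00 ± 0.08 (2.00-fold, adjusted p = 3.14e-05) and Tcf15 by 1.20 ± 0.11 (2.29-fold, adjusted p = 6.92e-05).

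Foxd3, a forkhead gene that ESCs and the epiblast both need and that later specifies the neural crest, moved least. Its level was 8.12 and 8.05 in F266A -dox, 8.35 and 8.34 in F266A +dox, 8.09 and 8.12 in WT -dox and 7.98 and 8.09 in WT +dox. F266A +dox stood above the other 3 groups, and F266A -dox overlapped both WT groups. In the WT line the change on withdrawal was 0.07 ± 0.07 (95% interval -0.08 to 0.22, adjusted p = 0.473), and in the F266A line Foxd3 fell by 0.26 ± 0.07 (1.19-fold lower, adjusted p = 0.0286). The fall in the F266A line was lost without replicate 1 of F266A +dox (adjusted p = 0.125), without its replicate 2 (0.0977) and without replicate 2 of F266A -dox (0.125), and also with no filter on low values (0.0553) and with only the groups of the comparison fitted (0.0548).

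**Figure D1:**
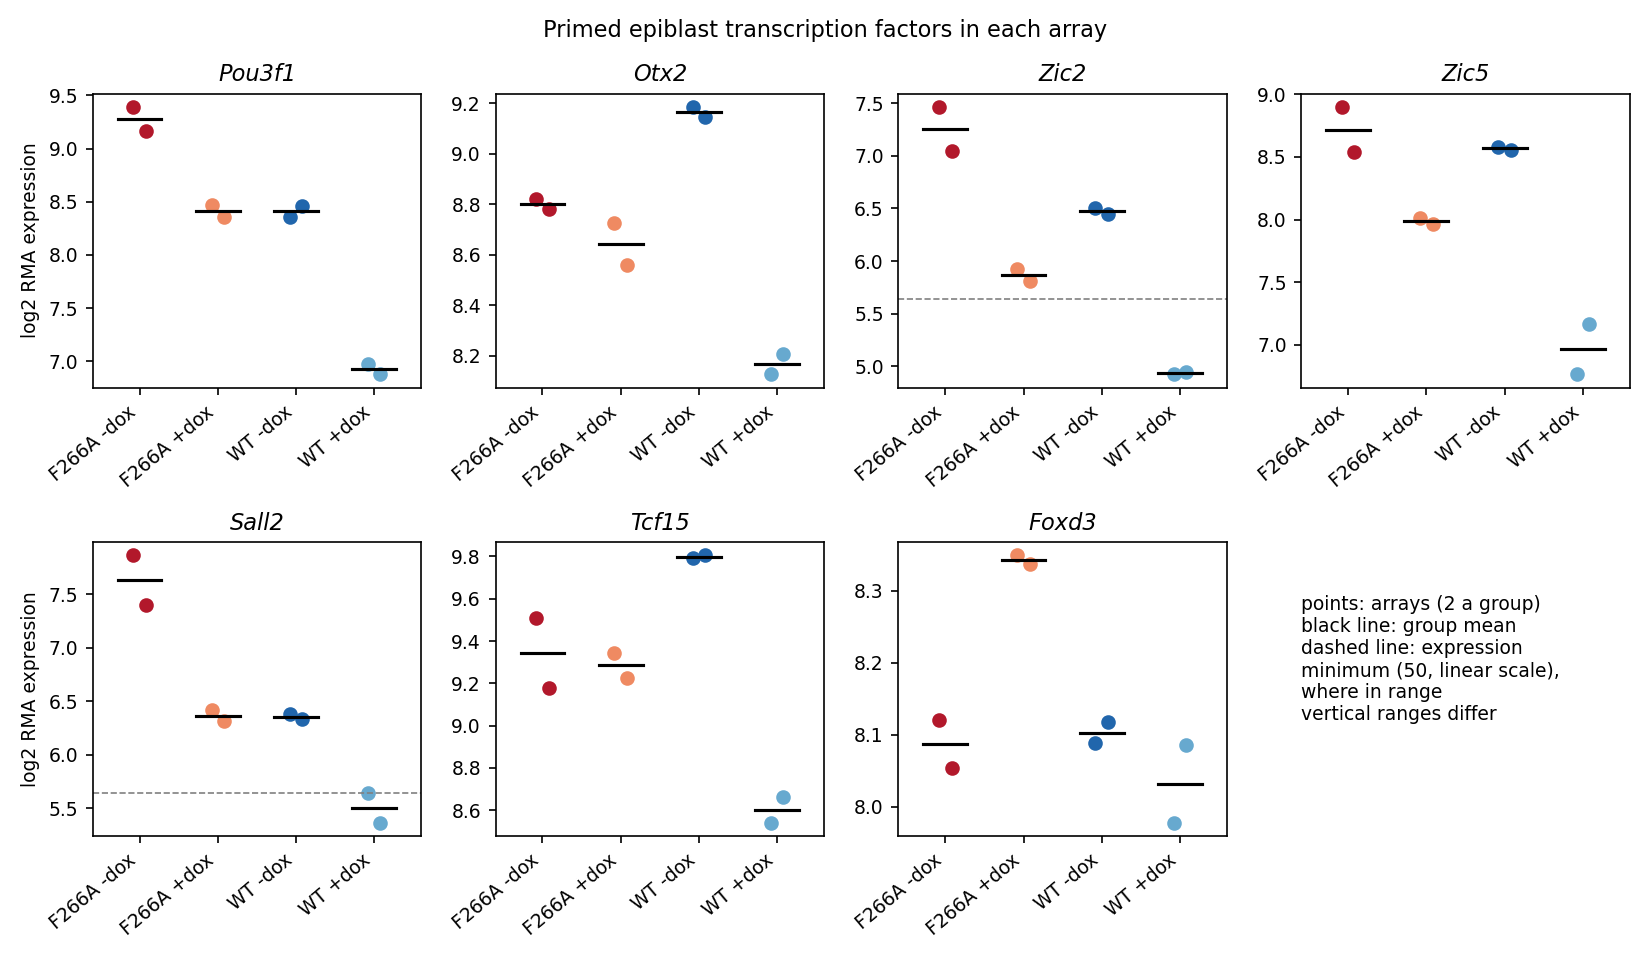
Log2 RMA expression of the 7 genes in each array, with 2 points a group, a black line at the group mean and a dashed line at the expression minimum where it lies in range; the vertical ranges differ between panels. By group mean, Pou3f1, Zic2, Zic5 and Sall2 were highest in F266A -dox, Otx2 and Tcf15 in WT -dox, and Foxd3 in F266A +dox, while WT +dox had the lowest mean for all 7, though its Foxd3 arrays overlapped those of F266A -dox.

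Withdrawal of WT WDR5 asks what the loss of the transgene does in cells that also carry the shRNA. In either line the -dox and +dox arrays also differ in doxycycline itself, and no array is of cells without an inducible transgene. An effect of the drug therefore cannot be told apart from loss of the transgene. Of the 7 genes, 6 rose and none fell, by 0.85 to 1.60 on the log2 scale, against 16.1% of the 11940 genes that were called higher and 15.4% that were called lower in WT -dox minus WT +dox at an adjusted p under 0.05. The median over the 7 genes was 1.20, and over all genes 0.00. These 6 calls were kept when each of the 8 arrays was left out in turn. Foxd3 was the gene not called. For Zic2 and Sall2 the WT +dox arrays were under the expression minimum, so their rise can be read too small.

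In the F266A line the same withdrawal raised 4 of the 7, Pou3f1, Zic2, Zic5 and Sall2, and lowered Foxd3, against 8.94% of genes called higher and 10.6% called lower. The median over the 7 was 0.73, and over all genes 0.00. Zic2 and Sall2 ranked at places 10 and 14 from the top among the 11940 genes ordered by this difference. Otx2 and Tcf15 were at places 2354 and 4474.

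**Figure D2:**
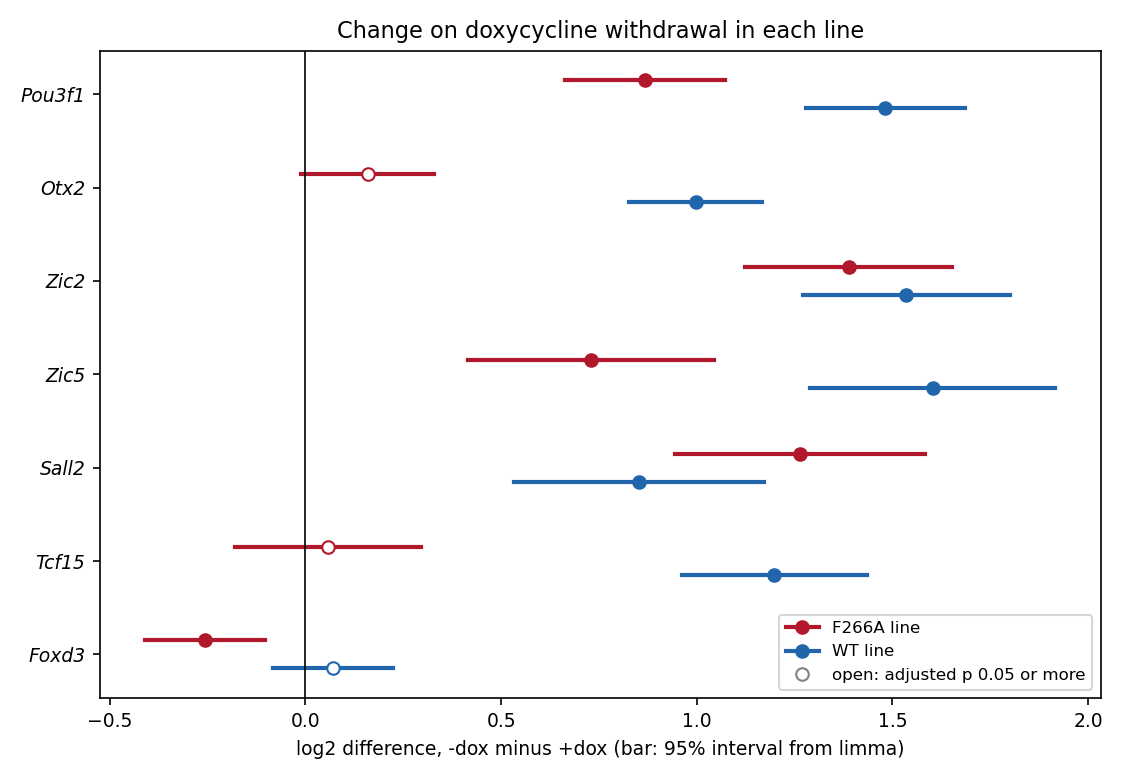
Log2 difference -dox minus +dox for each gene in the F266A line (red) and the WT line (blue), with the 95% interval from limma; open points did not pass an adjusted p of 0.05. The points of Otx2 lay at 0.16 and 1.00 and those of Tcf15 at 0.06 and 1.20, whereas those of Zic2 lay at 1.39 and 1.53.

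Whether withdrawal acted differently in the F266A line and the WT line was tested as an interaction, the change in the F266A line minus that in the WT line. It was called below 0 for 4 of the 7 genes and called above 0 for none, against 2.94% of genes called lower and 2.21% called higher. Tcf15 gave -1.14 ± 0.15 (adjusted p = 0.0051) and Otx2 -0.84 ± 0.11 (adjusted p = 0.00469), and both calls were kept when each of the 8 arrays was left out. Pou3f1 gave -0.61 ± 0.13 (adjusted p = 0.0294) and Zic5 -0.87 ± 0.20 (adjusted p = 0.0384). Tested on their own, the Pou3f1 probe sets gave -0.97 ± 0.14 (adjusted p = 0.0163) and -0.26 ± 0.16 (adjusted p = 0.403), and neither Zic5 probe set passed (adjusted p = 0.0602 and 0.0661). The Pou3f1 call was lost in 7 of the 8 fits with an array left out, all but the one without replicate 1 of F266A -dox, with adjusted p between 0.0548 and 0.121. That of Zic5 was lost in 6 of 8, all but those without replicate 2 of WT +dox or replicate 1 of F266A -dox, with adjusted p between 0.0915 and 0.137. Zic2 gave -0.15 ± 0.17 (95% interval -0.52 to 0.23, adjusted p = 0.656) and Sall2 0.41 ± 0.20 (95% interval -0.04 to 0.86, adjusted p = 0.277). Both are measured against WT +dox arrays under the expression minimum, where a change in the WT line can be read too small. Foxd3 gave -0.33 ± 0.10 (95% interval -0.54 to -0.11, adjusted p = 0.0902), which missed the threshold over all genes.

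Comparing the lines with the transgene on asks what the F266A form does in the place of WT. The study reports that these lines made equal transgene RNA but held less F266A than WT protein. The form of WDR5 and its amount therefore cannot be told apart in this comparison. F266A +dox was above WT +dox for all 7 genes, against 15.9% of genes called higher and 12.5% called lower, with a median of 0.86 over the 7 and 0.00 over all genes. Pou3f1 differed most, by 1.48 ± 0.09 (2.80-fold, adjusted p = 9.26e-06), followed by Zic5 at 1.02 ± 0.14, Zic2 at 0.93 ± 0.12, Sall2 at 0.86 ± 0.14, Tcf15 at 0.68 ± 0.11 and Otx2 at 0.47 ± 0.08. The adjusted p of these other 5 lay between 0.000437 and 0.00187. The WT +dox arrays of Zic2 and Sall2 were under the expression minimum, so their differences can be read too small. The median of 0.86 is the Sall2 value. Foxd3 had the smallest difference, 0.31 ± 0.07 (1.24-fold, adjusted p = 0.00836), and it was lost without replicate 1 of WT +dox (0.26, adjusted p = 0.0622) and without replicate 1 of F266A +dox (0.30, adjusted p = 0.0516). The other 6 calls were kept when any 1 of the 8 arrays was left out. Wdr5 itself was 0.24 ± 0.07 higher in F266A +dox than in WT +dox (adjusted p = 0.0249), and its part in the result was not tested.

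With the transgene off, the lines differed in both directions. Pou3f1, Zic2 and Sall2 were higher in F266A -dox than in WT -dox, by 0.87 ± 0.09 (adjusted p = 0.000162), 0.79 ± 0.12 (adjusted p = 0.0012) and 1.27 ± 0.14 (adjusted p = 0.000242). Otx2 was lower by 0.36, with an SE of 0.08 (1.29-fold, adjusted p = 0.00673), and Tcf15 by 0.46, with an SE of 0.11 (1.37-fold, adjusted p = 0.0112). These 3 higher and 2 lower calls compare with 14.0% of genes called higher and 13.4% called lower. The call of Tcf15 was lost without replicate 2 of WT -dox (-0.45, adjusted p = 0.054) and without replicate 2 of F266A -dox (-0.29, adjusted p = 0.0597), while the other 4 calls were kept with any 1 array left out. Foxd3 did not pass the test (-0.02, 95% interval -0.17 to 0.14), nor did Zic5. The transgene was induced in neither group, and 18S control values were lower in F266A -dox than in WT -dox, as given above.

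**Figure D3:**
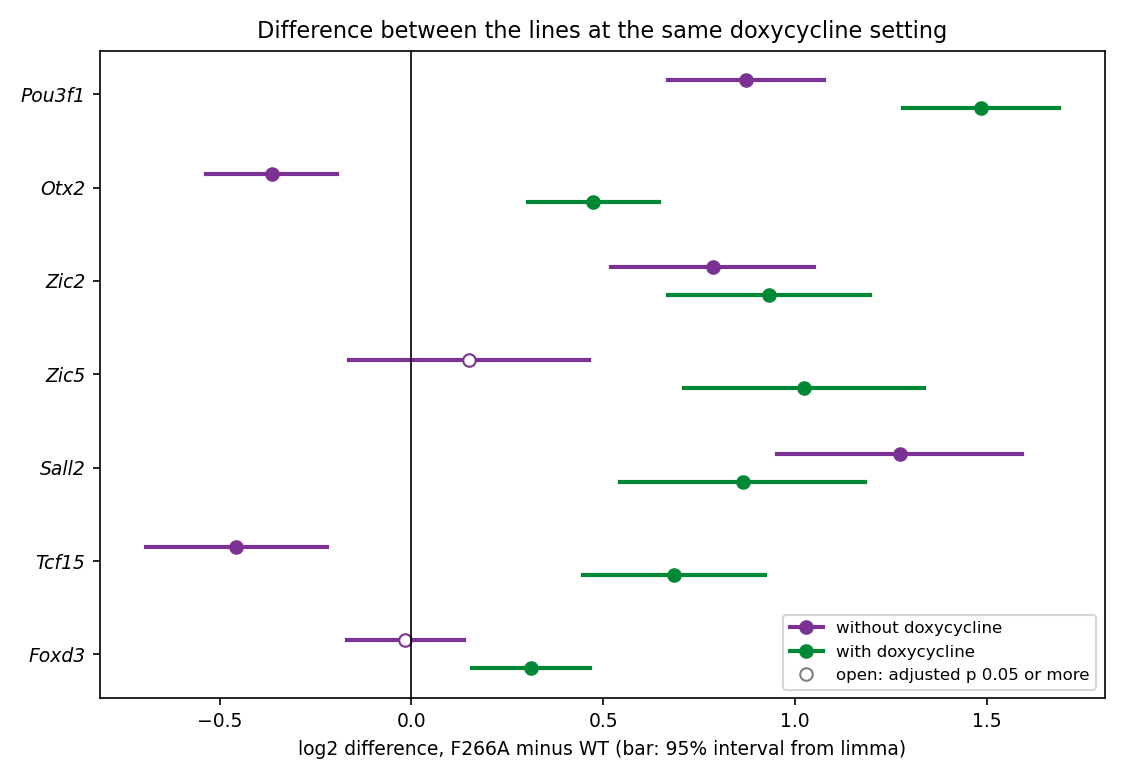
Log2 difference F266A minus WT for each gene without doxycycline (purple) and with it (green), with the 95% interval from limma; open points did not pass an adjusted p of 0.05. Otx2 lay at -0.36 without doxycycline and at 0.47 with it, and Tcf15 at -0.46 and 0.68, on opposite sides of 0, while Pou3f1, Zic2 and Sall2 lay above 0 in both.

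The groups at the ends of the design were F266A -dox and WT +dox. There 6 of the 7 genes were higher in F266A -dox, against 25.9% of genes called higher and 25.0% called lower. Pou3f1 was 5.11-fold higher (2.35 ± 0.09, adjusted p = 2.09e-07), Zic2 4.99-fold (2.32 ± 0.12, adjusted p = 6.83e-07), Sall2 4.36-fold (2.13 ± 0.14, adjusted p = 3.23e-06) and Zic5 3.37-fold (1.75 ± 0.14, adjusted p = 8.93e-06). Tcf15 and Otx2 differed less, by 0.74 ± 0.11 and 0.63 ± 0.08. The folds of Zic2 and Sall2 are set against a level under the expression minimum. Foxd3 did not pass the test (0.06, 95% interval -0.10 to 0.21).

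F266A +dox and WT -dox were closest for Pou3f1 and Sall2, as given above. Otx2, Zic2, Zic5 and Tcf15 were lower in F266A +dox, by 0.51 to 0.60, and Foxd3 was higher by 0.24 ± 0.07, so that 4 genes were lower and 1 higher against 4.41% and 9.09% of all genes. The call of Otx2 (-0.52 ± 0.08, adjusted p = 0.00218) was kept with any array left out. Leaving out any 1 of the 4 arrays of these groups ended those of Zic5 (adjusted p between 0.0839 and 0.12), Tcf15 (between 0.052 and 0.0874) and Foxd3 (between 0.142 and 0.205), and that of Foxd3 also ended without either WT +dox array (0.0506). That of Zic2 ended without any of them but replicate 2 of WT -dox (between 0.0504 and 0.0726).

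The profiles of the 7 genes over the 8 arrays were then set against each other, each centred on its own mean, by the root mean square difference of log2 values. Otx2 and Tcf15 were the closest pair, at 0.11. Pou3f1 and Zic2 lay 0.25 apart, Zic2 and Sall2 0.28, Pou3f1 and Sall2 0.28 and Zic2 and Zic5 0.29. The neighbouring genes Zic2 and Zic5 were thus no closer than Zic2 and Pou3f1, which lie on different chromosomes. Zic5 stood between the sets, at 0.37 from Tcf15 and 0.41 from Otx2. Of the other members, Otx2 was nearest to Foxd3, at 0.36, but only in place 10995 of all genes. The nearest member stood in place 43 of all genes for Zic5, 37 for Sall2 and 24 for Pou3f1. It stood in place 10 for Zic2 and for Otx2 and in place 3 for Tcf15. These distances describe 8 arrays of 4 groups and carry no test.

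**Figure D4:**
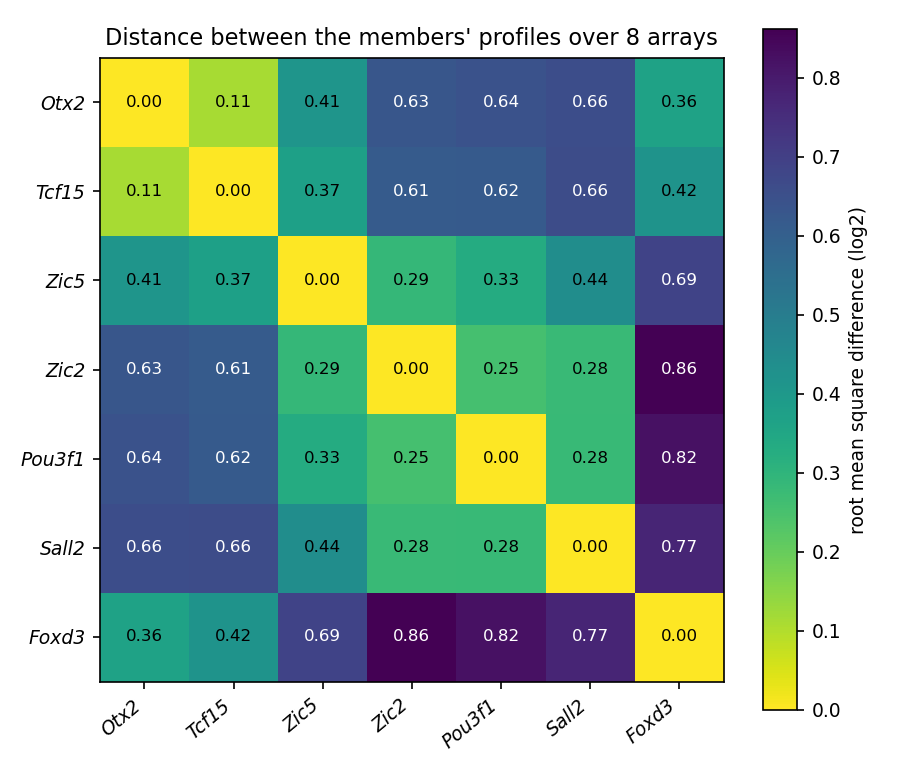
Root mean square difference (log2) between the centred profiles of the 7 genes over the 8 arrays; yellow is close and dark is far. Otx2 and Tcf15 form the closest pair, at 0.11, and Zic2, Pou3f1 and Sall2 lie within 0.28 of each other.

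Among all genes tested, the 3 most like each of the 7 were named by the same measure. Nefl, a neurofilament subunit, was closest to Pou3f1 at 0.12, with Sulf1, a heparan sulfate sulfatase, at 0.13 and Id1, an inhibitor of basic helix-loop-helix factors, at 0.15. Otx2 was closest to Pdzd4, to Egln1, an oxygen-sensing prolyl hydroxylase, and to Cyp11a1, a steroid-synthesis enzyme, all at 0.08. Cyp11a1 also stood near Tcf15, at 0.09, after Pcyt1b, an enzyme of phosphatidylcholine synthesis, and before Otx2 itself, which was in place 3 of all genes. Slc27a2, a fatty acid transporter, was closest to Zic2 at 0.19, followed by the de novo DNA methyltransferase gene Dnmt3b, also at 0.19, and Dtx3l at 0.23. The genes nearest to Zic5 were Ina, which encodes the neuronal filament protein internexin, Bend3 and Cyria, all at 0.18. Sall2 had Ms4a10 at 0.13, the casein gene Csn3 at 0.15 and Stbd1 at 0.16. Foxd3 had Fam120a, Gpalpp1 and Tusc1 within 0.05, but its own profile was so flat that the median distance of all genes from it was only 0.18, compared with 0.85 from Pou3f1.

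Other genes of the primed state were read from a list of 14, all of them measured. In WT -dox minus WT +dox 11 of the 14 were higher and none lower (median 0.64), against 16.1% of all genes higher. In F266A +dox minus WT +dox 10 were higher and none lower (median 0.60), against 15.9%, and in F266A -dox minus F266A +dox 10 were higher and none lower (median 0.82), against 8.94%. Wnt8a was among the genes called higher in each of these comparisons. It exceeded the expression minimum only in the F266A -dox arrays, at 5.66 and 5.79, so it was tested only through that group and its other levels are background. Fgf5, the classic epiblast growth factor gene, was at 7.74 and 8.06 in F266A -dox, 5.31 and 4.86 in F266A +dox, 5.49 and 6.24 in WT -dox and 4.06 and 3.88 in WT +dox, and its F266A -dox arrays stood apart from all others. F266A -dox minus WT +dox was 3.93 ± 0.23 for Fgf5, 3.18 ± 0.13 for Cdh2 (N-cadherin) and 3.12 ± 0.10 for the kinase gene Pim2. For Fgf5 and Cdh2 the WT +dox arrays were under the expression minimum, so these differences are set against background. Fst, which encodes the activin antagonist follistatin, had a positive interaction, 1.36 ± 0.18 (adjusted p = 0.00605), opposite in sign to Otx2 and Tcf15. Dnmt3a, Dnmt3b, Pim2 and Etv4 had negative ones, between -0.93 and -0.49. Tead2 and Grhl2 did not pass the test in either withdrawal.

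Naive transcription factors were read from a list of 12, all measured. Withdrawal lowered 9 of the 12 in the F266A line and 7 in the WT line, with medians of -0.54 and -0.36, against 10.6% and 15.4% of all genes called lower. Klf4 fell by 0.94 in the F266A line and by 0.55 in the WT line, Tbx3 by 1.01 and by 0.60 and Esrrb by 0.67 and by 0.37. Gbx2, listed here because it can hold ESCs in the naive state, was the 1 gene of the list that rose in the WT line. It was at 7.63 and 7.42 in F266A -dox, 7.31 and 7.20 in F266A +dox, 7.92 and 8.12 in WT -dox and 6.09 and 6.14 in WT +dox. That order, with the F266A groups between the WT groups, is the one seen for Otx2 and Tcf15, and the interaction of Gbx2 was -1.63 ± 0.13 (adjusted p = 0.000714).

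**Figure D5:**
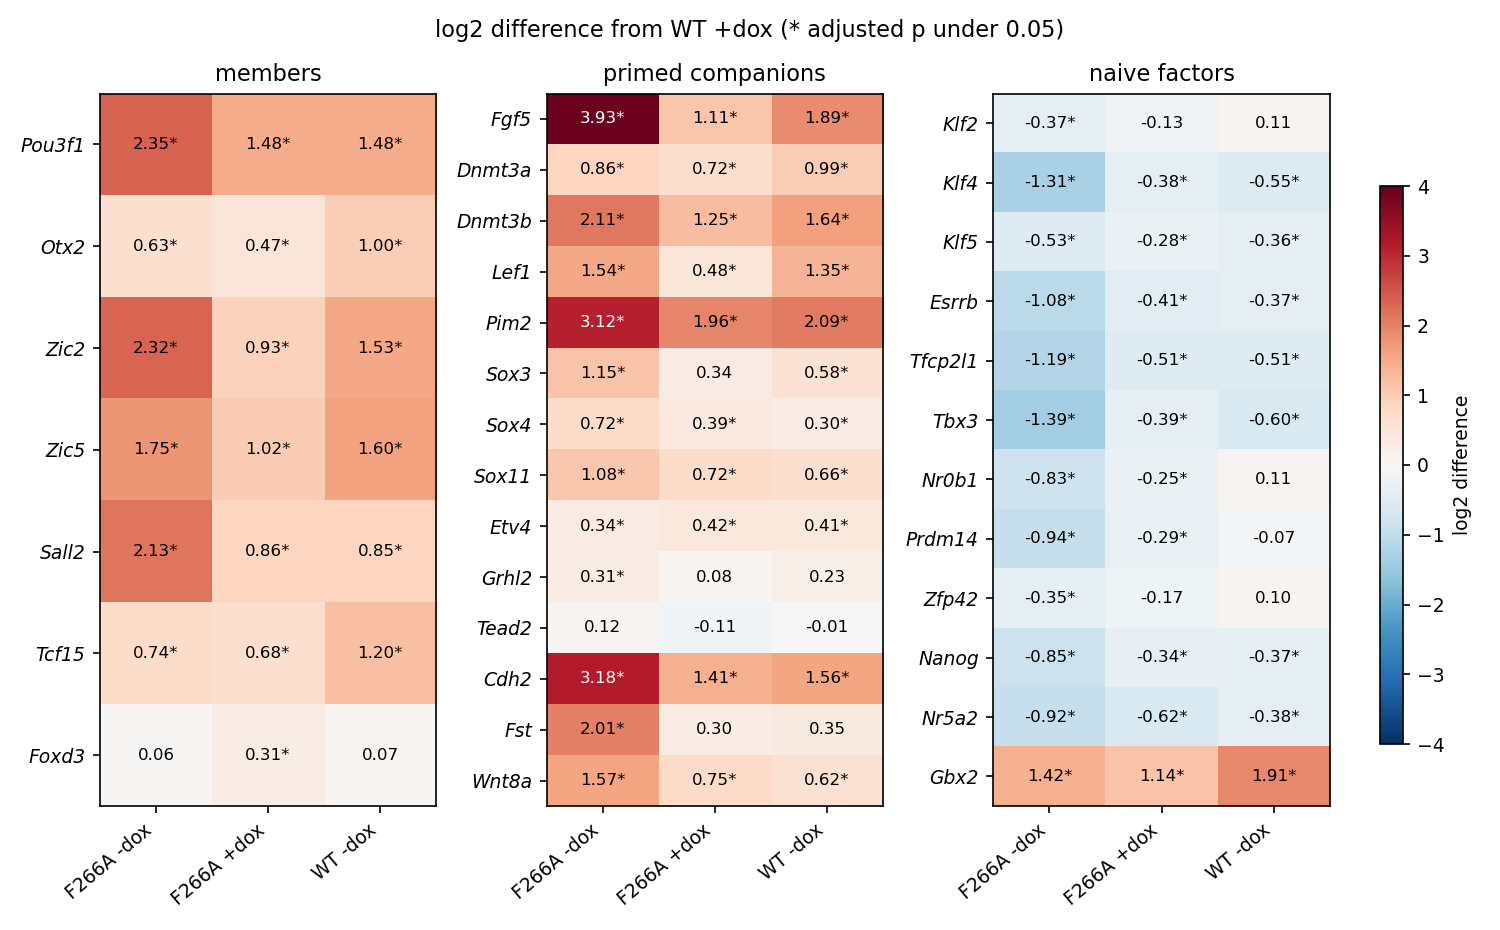
Log2 difference from WT +dox of F266A -dox, F266A +dox and WT -dox for the 7 genes (left), the 14 other primed genes (middle) and the 12 naive factors (right); red is higher than in WT +dox, blue lower, and an asterisk marks an adjusted p under 0.05. The 3 columns share the same WT +dox arrays. Gbx2 is the only naive factor shown in red in all 3 columns.

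Relatives of the 7 genes in their protein families were mostly below the minimum. Of those read, 9 stayed below the expression minimum, among them Zic1, Zic4, Pou3f3, Otx1 and Foxd1, and 4 were tested, Sall1, Sall3, Sall4 and Pou3f2. Sall4, a regulator of ESC self-renewal, was called in none of the 6 comparisons between groups, with differences between -0.18 and 0.09. None of the 4 was called in the withdrawal of WT WDR5. Pou3f2 was higher in F266A -dox than in F266A +dox by 0.24 ± 0.07 (adjusted p = 0.0299), and lower in F266A +dox than in WT +dox by 0.30, with an SE of 0.07 (adjusted p = 0.00815). Sall1 was lower in F266A -dox than in WT -dox by 0.42, with an SE of 0.09 (adjusted p = 0.00954).

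The tissues in which these genes act later were read from lists of their markers. Of 12 early neural genes, 8 were tested, and in F266A -dox minus WT +dox 3 were higher and 2 lower, against the 25.9% and 25.0% of all genes given above, so the counts were near that background. Nes, which encodes the intermediate filament nestin, was higher by 1.10 ± 0.09 and Pax6 by 0.51 ± 0.07, whereas Sox1 was lower by 0.64 and Hesx1 by 1.31. Sox1 and Pax6 both define neural progenitors, and their opposite signs leave the list with a median of 0.14. Both Sox1 arrays of F266A -dox were under the expression minimum, at 5.63 and 5.24, so the lower Sox1 level is background. Of 7 neural crest genes, Snai2, Sox9, Pax3 and Pax7 stayed below the minimum. Twist1 and Tfap2a were higher in F266A -dox than in WT +dox, by 0.77 ± 0.10 and 0.42 ± 0.08, while Foxd3 was not called there. For Twist1 and Tfap2a, as for Pax6, the WT +dox arrays were under the expression minimum, so these differences are set against background. Twist1 exceeded the minimum only in replicate 1 of F266A -dox, at 5.65, and was thus tested only through the group where it was high. Of 8 paraxial mesoderm genes, 5 stayed below the minimum, Tbx6 and Msgn1 included, and in WT -dox minus WT +dox, where Tcf15 rose, Mesp2 fell by 0.38 and Meox1 and Mesp1 were not called.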

How the data were processed

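Labelled cDNA was, per the study's methods, hybridised to 8 Affymetrix mouse expression arrays. The authors summarised the scans by RMA (justRMA in R 2.11.1, per the labels and methods), so the deposited values, 45101 probe sets an array, are on the log2 scale. They were not normalised again here. Array medians lay between 5.36 and 5.39. Probe sets with a single gene symbol numbered 34945; the 932 with several symbols, the 9160 without one and the 64 controls were not tested. Following the study's methods, 20046 probe sets with a linear value over 50 in any array were kept and averaged by gene, which left 11940 genes.

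All 8 arrays were fitted as 4 group means with limma 3.58.1 (lmFit and eBayes, R 4.3.3), and 7 two-sided contrasts were tested, with p adjusted by Benjamini and Hochberg's method within each contrast and calls made at an adjusted p under 0.05. The fit had 4 residual and 5.32 prior degrees of freedom, and the script was tested on simulated data. Precision is limited by 2 arrays a group: the median SE of a difference between groups was 0.08. Groups and replicate numbers came from the sample titles.

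The 7 genes and all gene lists were chosen with earlier results of these data known. The genes named are the 7, Wdr5, genes of the lists and, for each of the 7, the 3 genes with the smallest root mean square difference of centred log2 values. Alternatives were no filter, a minimum of 100, the highest probe set, each probe set on its own, quantile and median scaling, only the contrast's groups, the replicate number as a block, trended robust variances, array weights, a SAM-type statistic (the study's SAM was not installed), a 2-fold threshold and leaving out each array. Promoters came from RefSeq (GRCm38.p6).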

Additional observations from a re-analysis of the deposited data

Results flagged for a closer look

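For 4 genes the change on withdrawal differed between the F266A line and the WT line, by the interaction test in limma. The interaction was -1.14 for Tcf15 and -0.84 for Otx2, and both genes rose in the WT line and were not called in the F266A line. It was -0.61 for Pou3f1 and -0.87 for Zic5, which rose in both lines and by less in the F266A line. The calls of Tcf15 and Otx2 were kept in all 8 fits with an array left out, whereas that of Pou3f1 was lost in 7 and that of Zic5 in 6. No explanation was tested.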

How the results depend on the processing

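Of 1022 log2 differences of single genes recomputed under an alternative, 937 kept their direction and their side of the threshold, 75 lost the threshold and 10 changed sign. The numbers of the 7 genes called are not part of this tally and are given next. With a 2-fold threshold added, the number of the 7 genes called was 2 instead of 7 in F266A +dox minus WT +dox, 2 instead of 5 in F266A -dox minus F266A +dox, 1 instead of 5 in F266A -dox minus WT -dox, 0 instead of 5 in F266A +dox minus WT -dox and 1 instead of 4 for the interaction. In WT -dox minus WT +dox it was 4 instead of 6, with Otx2 and Sall2 lost. It was also 4 instead of 6 in F266A -dox minus WT +dox, with Otx2 and Tcf15 lost. Over all genes that threshold left 162 of 3763 calls in WT -dox minus WT +dox, 234 of 3384 in F266A +dox minus WT +dox, 48 of 2333 in F266A -dox minus F266A +dox, 216 of 3277 in F266A -dox minus WT -dox, 653 of 6080 in F266A -dox minus WT +dox, 82 of 1611 in F266A +dox minus WT -dox and 61 of 615 for the interaction. With no filter on low values, which tests more genes and brings in the third Zic5 probe set, it was 3 in F266A +dox minus WT -dox and 2 for the interaction. Leaving out each array gave 3 to 5 in F266A -dox minus F266A +dox, 1 to 5 in F266A +dox minus WT -dox and 2 to 4 for the interaction, and the arrays concerned are named with each result. Sign changes touched only differences that were not called. Quantile normalization gave -0.022 for Pou3f1 and -0.033 for Sall2 in F266A +dox minus WT -dox. Leaving out arrays gave -0.052 to 0.058 for Pou3f1 and -0.042 to 0.061 for Sall2 in that comparison, -0.11 to 0.22 for Tcf15 in F266A -dox minus F266A +dox, -0.032 to 0.33 for Zic5 and -0.049 to 0.018 for Foxd3 in F266A -dox minus WT -dox, and -0.35 to 0.061 for the Zic2 interaction. The cause was not tested.

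No source says that replicate numbers mark a shared batch. Deviations of same-numbered arrays correlated at 0.129 in the WT line and 0.165 in the F266A line, and between lines at -0.176 to -0.111, so a pairing of the numbers within each line was not settled. With the replicate block the number of the 7 genes called was 6 in WT -dox minus WT +dox, 7 in F266A +dox minus WT +dox, 5 in F266A -dox minus F266A +dox, 5 in F266A -dox minus WT -dox, 6 in F266A -dox minus WT +dox, 4 in F266A +dox minus WT -dox, where Foxd3 was lost (adjusted p = 0.0747), and 3 for the interaction, where Zic5 was lost (adjusted p = 0.0527). Crossed numbers between the lines, tried after seeing the data, gave 5 and 4 in the last pair of tests. Over all genes, leaving out an array moved the count of calls. The full fit called 3763 genes in WT -dox minus WT +dox, 2333 in F266A -dox minus F266A +dox and 615 for the interaction. With an array left out, the count fell in F266A -dox minus F266A +dox and moved both ways in the others. With 2 arrays a group, differences of the size of Foxd3's are near what the arrays can resolve, and levels of Zic2 and Sall2 in WT +dox are near background, so their folds there are imprecise.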
